A study of Rattus norvegicus with 8 samples.

Results

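The genes described here are those of the urea cycle and of the nitrogen handling that surrounds it in periportal hepatocytes, Cps1, Otc, Ass1, Asl, Nags, Slc25a15, Slc25a13, Gls2 and Hal. They were chosen by name, and every non-control probe carrying 1 of these names was taken, which gave 11 of the 45598 distinct probes and 9 of the 27110 gene names on the array. Each gene had 1 probe except Slc25a15, which had 3, and all 11 probes passed the filter on dim signals. The samples were cells cut with an ultraviolet laser (laser microdissection, LMD) from frozen sections of rat liver. MHs are mature hepatocytes, labelled as taken from control recipient livers (2 samples). SHPCs are small hepatocyte-like progenitor cells, which form clusters when hepatocyte division is blocked. They were cut from recipient control livers (3 samples) or from recipient livers transplanted with BM-MCs, mesenchymal cells grown from bone marrow (3 samples). Per the methods, all recipients were female F344 rats given retrorsine (Ret), a plant alkaloid that blocks hepatocyte division, followed by partial hepatectomy (PH), so that every group carries the Ret/PH treatment and no untreated liver is among the samples. The labels give the strain as DPPIV+ F344, whereas the methods give DPPIV- recipients and DPPIV+ donors. The donor cells were injected through the spleen, and the recipients were killed at a single time afterwards. Animals are not matched to samples in either source, and the p-values therefore reflect sample-to-sample spread that may be technical.

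The urea cycle turns ammonia, which is toxic to the brain, into urea, and the complete cycle runs only in the liver. Nags makes N-acetylglutamate, without which Cps1 is inactive. Cps1 and Otc act in the mitochondrial matrix, Ass1 and Asl act in the cytosol, and the carriers Slc25a15 and Slc25a13 move ornithine, citrulline, aspartate and glutamate across the inner membrane. Hepatocytes around the portal vein hold most of this pathway, together with Gls2 and Hal, which release ammonia from glutamine and histidine. Hepatocytes around the central vein instead capture the remaining ammonia as glutamine through Glul.

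A 60-base probe reads 1 place in each transcript. The 4 sequences below are shown because they belong to the enzymes and the cofactor synthase that begin the cycle and to the first cytosolic enzyme, and because the coordinates in the array's annotation span more than the probe's own length, so that each crosses an exon junction. The header of the array's annotation names rn4 as its build. The Cps1 probe lies at chr9:66002449-66003777 (plus strand), the Otc probe at chrX:24619355-24624560 (minus strand), the Nags probe at chr10:91213944-91214110 (plus strand) and the Ass1 probe at chr3:10620727-10622079 (plus strand). Each holds at least 1 reading frame without a stop codon.
Cps1: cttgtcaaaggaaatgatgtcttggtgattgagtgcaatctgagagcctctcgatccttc
Otc: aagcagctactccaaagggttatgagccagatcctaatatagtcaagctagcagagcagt
Nags: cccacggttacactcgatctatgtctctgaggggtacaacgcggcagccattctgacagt
Ass1: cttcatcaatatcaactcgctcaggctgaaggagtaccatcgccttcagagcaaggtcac

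Levels are given as log2 of the processed signal less the 75th percentile of the same array, so that a difference of 1 is a doubling, and a level of 1 probe is not comparable with that of another. All 8 arrays were on 1 slide. The first set of 4 arrays held both MHs with control SHPC replicates 1 and 2, and the second held all BM-MC samples with control SHPC replicate 3, so that array position and transplantation largely cannot be told apart. Control SHPC replicate 3 stood apart for these genes. It was the highest of the 8 samples for 8 of the 9 genes, and its array had the lowest 75th percentile, 1254 against 1366 to 1742 on the other arrays. It also had the highest summed linear level of 5 erythroid markers relative to the 75th percentile, 69.4 against 10.2 to 26.8 in the other samples, with Hba-a1, an alpha globin, at 6.05 on the log2 scale against 3.26 to 4.69. The part of red cell transcripts in its levels was not tested. For control SHPC replicate 2 only 20903 of 62976 features are in the scanner output, and its signals therefore came from the deposited value table.

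None of the 9 genes passed an adjusted p under 0.05 in any comparison. In control SHPCs against MHs, 0 genes were called in either direction by limma, where 0.917% of all tested probes were called higher and 0.216% lower. At an unadjusted p under 0.05, 5 of the 9 were higher (Cps1, Otc, Nags, Gls2 and Hal) and 0 lower, against 8.21% higher and 11% lower over all probes. In SHPCs with BM-MCs against MHs, 0 genes were called, where 0.32% of probes were called higher and 0.0173% lower. Here 1 gene, Hal, was higher at an unadjusted p under 0.05, against 7.33% of all probes, and 0 were lower, against 5.95%. In the comparison of both SHPC groups, 0 genes were called, against 0.0216% of probes called higher and 0% lower, and 0 genes had an unadjusted p under 0.05 in either direction, against 10.7% and 5.92% of probes.

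Against MHs the log2 fold changes shared a direction as scaled here, which did not hold for every gene under the alternatives. All 9 log2 fold changes were positive in control SHPCs against MHs, except that Asl became negative without scaling between arrays (-0.041), with array weights, with either block, and without MH replicate 2 (-0.19) or control SHPC replicate 3 (-0.11), and Slc25a13 with normexp background correction and quantile normalization together on 7 arrays (-0.0065). Of all tested probes 46.2% were positive. Against MHs all 9 were also positive in SHPCs with BM-MCs, except that Asl, Nags, Slc25a15 and Slc25a13 became negative when arrays were set to their medians, Nags with the replicate block and without BM-MC replicate 3, and Asl without MH replicate 2. With the set of arrays as a block 7 of the 9 became negative, Cps1 (-0.34), Otc (-0.12), Ass1 (-0.61), Asl (-0.34), Nags (-0.36), Slc25a15 (-0.14) and Gls2 (-0.066). Of all tested probes 50.5% were positive. These 2 comparisons share the MH samples. The median over the 9 genes was 0.47 in control SHPCs against MHs and 0.20 in SHPCs with BM-MCs against MHs, beside medians of -0.06 and -0.02 over all 14536 tested genes. Between the SHPC groups the median was -0.17, beside 0.02 over all genes, with 3 genes positive and 6 negative, where 52.6% of probes were positive. The 8 hepatocyte markers described below had a median of -0.13 in that comparison, with 0 positive. In control SHPCs against MHs 7 of these markers were positive, with a median of 0.13. In SHPCs with BM-MCs against MHs 6 of them were, with a median of 0.013. Set to array medians, all 9 of the urea cycle and periportal genes were negative between the SHPC groups. Setting arrays to their medians shifts all probes of an array by the same amount. The median over all probes therefore necessarily fell with these genes, to -0.19 in SHPCs with BM-MCs against MHs and -0.17 against control SHPCs. In these bulk captures, fewer cells of a type and less RNA per cell cannot be told apart.

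**Figure D1:**
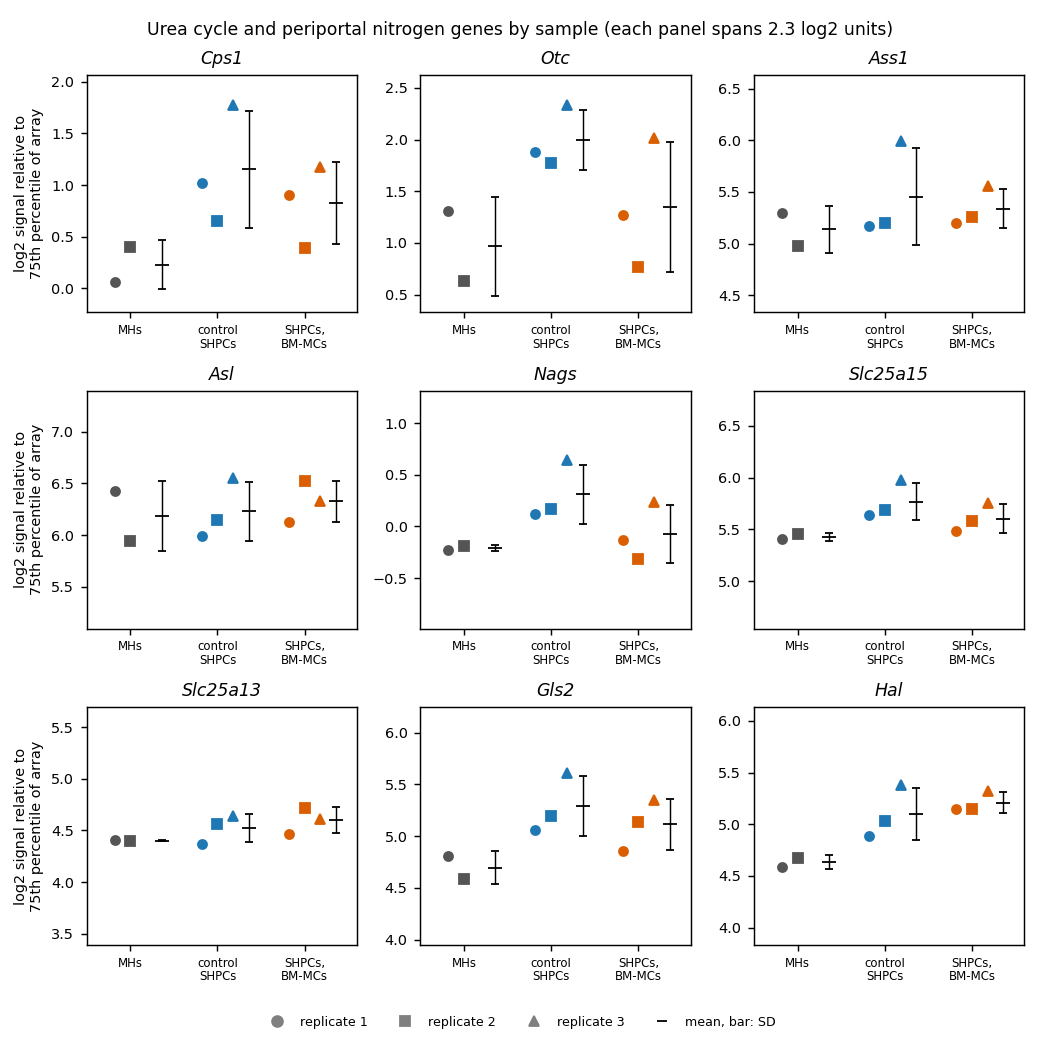
Level of each of the 9 genes in each of the 8 samples, as log2 signal relative to the 75th percentile of the array, for MHs (2 samples), control SHPCs (3) and SHPCs of livers with BM-MCs (3), with the mean and SD at the right of each group. Every panel spans the same number of log2 units, and control SHPC replicate 3 (blue triangle) is the highest sample in 8 of the 9 panels.

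Cps1 and Otc, which bring ammonia into the cycle, had the 2 largest log2 fold changes of the 9 genes in control SHPCs against MHs, without passing the adjusted threshold. Cps1, carbamoyl phosphate synthetase, was at 0.07 and 0.40 in the MHs, at 1.02, 0.66 and 1.77 in control SHPCs and at 0.91, 0.39 and 1.18 in SHPCs with BM-MCs. Every control SHPC sample was above both MHs, whereas BM-MC replicate 2 lay at the level of MH replicate 2. Its log2 fold change in control SHPCs against MHs was 0.92 (1.89-fold, standard error 0.35, adjusted p = 0.23 from limma). Against MHs it was 0.59 in SHPCs with BM-MCs (adjusted p = 0.49 from limma), and between the SHPC groups it was -0.33, with a 95% interval from -1.13 to 0.48. Control SHPC replicate 3 carried much of the first difference, which was 0.61 without it (adjusted p = 0.33 from limma). The Cps1 difference between the SHPC groups was -0.015 without that sample and -0.11 without BM-MC replicate 2. The same difference was -0.57 without control SHPC replicate 2 and -0.95 with the set of arrays as a block.

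Otc, ornithine transcarbamylase, which joins carbamoyl phosphate to ornithine, was at 1.30 and 0.63 in the MHs and at 1.88, 1.78 and 2.33 in control SHPCs. With BM-MCs it was at 1.27, 0.77 and 2.02. The control SHPC samples lay above both MHs, while the BM-MC samples spread across the whole range from the MHs to the control SHPCs. The log2 fold change was 1.03 in control SHPCs against MHs (2.04-fold, standard error 0.38, adjusted p = 0.22 from limma). It was 0.38 in SHPCs with BM-MCs against MHs (adjusted p = 0.68 from limma). Between the SHPC groups Otc had a log2 fold change of -0.64 (1.56-fold lower with BM-MCs, standard error 0.33, adjusted p = 0.38 from limma), whose 95% interval ran from -1.45 to 0.16. With 1 sample left out that value ran from -0.98 (without BM-MC replicate 3) to -0.35 (without BM-MC replicate 2). Against MHs the value with BM-MCs ran from 0.047 (without MH replicate 2) to 0.72 (without MH replicate 1), and was 0.053 without BM-MC replicate 3.

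Nags, the synthase of the Cps1 activator, was at -0.23 and -0.19 in the MHs, at 0.12, 0.17 and 0.64 in control SHPCs and at -0.13, -0.32 and 0.23 in SHPCs with BM-MCs. The MHs lay close together and below every control SHPC sample, and BM-MC replicate 2 was the lowest of the 8. Its log2 fold change was 0.52 in control SHPCs against MHs (standard error 0.22, adjusted p = 0.25 from limma), 0.13 in SHPCs with BM-MCs against MHs (adjusted p = 0.81 from limma) and -0.38 between the SHPC groups (standard error 0.21, adjusted p = 0.39 from limma). The 95% interval of the last value, -0.89 to 0.12, includes no difference, and the value was -0.22 without control SHPC replicate 3. Without BM-MC replicate 3 the value was -0.54, and with the set of arrays as a block it was -0.72.

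The cytosolic enzymes Ass1 and Asl did not pass the test in any comparison. Ass1, argininosuccinate synthase, was at 5.30 and 4.98 in the MHs, at 5.17, 5.20 and 5.99 in control SHPCs and at 5.20, 5.26 and 5.56 in SHPCs with BM-MCs. All groups overlapped, and control SHPC replicate 3 lay well above its group. The log2 fold changes were 0.31 and 0.20 against MHs (adjusted p = 0.55 and 0.77 from limma) and -0.11 between the SHPC groups (adjusted p = 0.84 from limma). In control SHPCs against MHs the Ass1 value ran from 0.045 (without control SHPC replicate 3) to 0.48 (without MH replicate 1), and with BM-MCs from 0.040 (without MH replicate 2) to 0.36 (without MH replicate 1). The value between the SHPC groups became 0.16 without control SHPC replicate 3, 0.039 with array weights and -0.65 with the set of arrays as a block. Asl, argininosuccinate lyase, which splits that product into arginine and fumarate, was at 6.42 and 5.94 in the MHs, at 5.99, 6.15 and 6.55 in control SHPCs and at 6.12, 6.53 and 6.32 in SHPCs with BM-MCs. MH replicate 1 was above all but 2 of the SHPC samples, so that the groups overlapped throughout. Its log2 fold change was 0.05 in control SHPCs against MHs, with a 95% interval from -0.48 to 0.57, and 0.14 in SHPCs with BM-MCs against MHs (adjusted p = 0.93 and 0.81 from limma).

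The carriers did not pass the test either. The brightest probe of Slc25a15, the ornithine and citrulline carrier, was at 5.40 and 5.45 in the MHs, at 5.64, 5.69 and 5.98 in control SHPCs and at 5.48, 5.58 and 5.75 in SHPCs with BM-MCs. Both MHs lay below all 6 SHPC samples, with a log2 fold change of 0.34 in control SHPCs (adjusted p = 0.26 from limma) and 0.18 in SHPCs with BM-MCs (adjusted p = 0.62 from limma). The second value was 0.10 without BM-MC replicate 3 and 0.78 with the mean of the gene's probes. Slc25a13, the mitochondrial carrier that exports aspartate in exchange for glutamate, was at 4.41 and 4.40 in the MHs, at 4.37, 4.56 and 4.64 in control SHPCs and at 4.46, 4.72 and 4.61 in SHPCs with BM-MCs. Control SHPC replicate 1 lay below the MHs, and all BM-MC samples lay above them. Its log2 fold change was 0.12 and 0.20 against MHs and 0.08 between the SHPC groups (adjusted p = 0.65, 0.54 and 0.78 from limma). With 1 sample left out the first value ran from 0.062 to 0.20.

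The 3 probes of Slc25a15 gave different values. A second probe, named by the same transcript as the brightest, was at 3.03 and 3.18 in the MHs, at 3.26, 3.19 and 3.64 in control SHPCs and at 3.19, 2.97 and 3.32 in SHPCs with BM-MCs, and differed between groups by at most 0.26. The third, named by a different transcript record, was dim, at -6.16 and -5.09 in the MHs and at -4.87, -6.17 and -5.05 in control SHPCs. It was at -3.67, -3.67 and -3.24 in SHPCs with BM-MCs, all above every other sample. It was not well above background in MH replicate 1, and control SHPC replicate 2 had no mark for it, so that 1 of 2 MHs and 2 of 3 control SHPCs are known to have measured it and the size of its differences is uncertain. With each signal taken at its value, the fitted log2 fold change was 2.10 in SHPCs with BM-MCs against MHs (standard error 0.45, adjusted p = 0.17 from limma) and 1.84 against control SHPCs (standard error 0.36, adjusted p = 0.13 from limma).

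**Figure D2:**
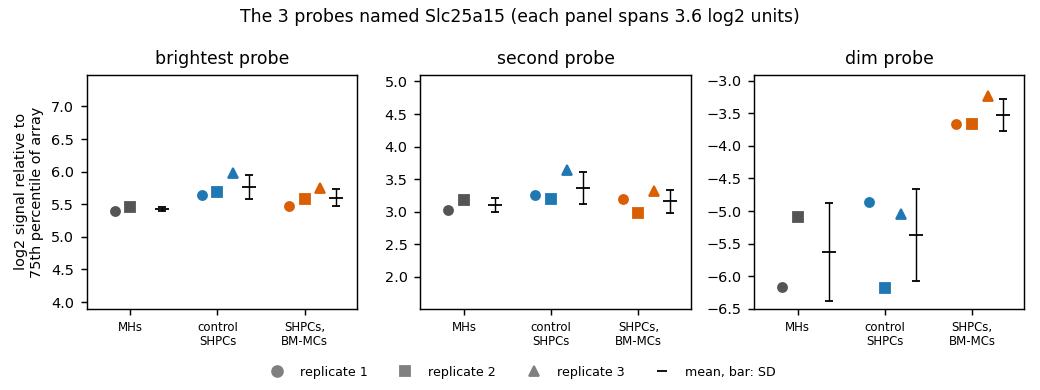
Level of the 3 probes named Slc25a15 in each sample, as log2 signal relative to the 75th percentile of the array, for MHs, control SHPCs and SHPCs with BM-MCs, with means and SDs. The 2 brighter probes differ by at most 0.34 between group means, whereas the dim probe is between -3.67 and -3.24 in the BM-MC samples and at -4.87 or lower in all others.

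Gls2 and Hal, which feed ammonia to the cycle, had positive log2 fold changes against MHs in both SHPC groups, without passing the adjusted threshold. Gls2, the liver glutaminase, was at 4.81 and 4.58 in the MHs, at 5.06, 5.20 and 5.61 in control SHPCs and at 4.86, 5.13 and 5.35 in SHPCs with BM-MCs. Every SHPC sample was above both MHs, although BM-MC replicate 1 exceeded MH replicate 1 only slightly. The log2 fold change was 0.59 in control SHPCs (1.51-fold, standard error 0.21, adjusted p = 0.21 from limma) and 0.42 in SHPCs with BM-MCs (1.34-fold, adjusted p = 0.43 from limma). Hal, histidine ammonia-lyase, was at 4.58 and 4.68 in the MHs, at 4.88, 5.03 and 5.38 in control SHPCs and at 5.15, 5.15 and 5.32 in SHPCs with BM-MCs. The MHs lay below all 6 SHPC samples. Hal had the lowest unadjusted p of the 9 genes in both comparisons with MHs, with a log2 fold change of 0.47 in control SHPCs (standard error 0.17, adjusted p = 0.20 from limma) and 0.58 in SHPCs with BM-MCs (standard error 0.17, adjusted p = 0.27 from limma). Between the SHPC groups Gls2 and Hal had log2 fold changes of -0.17 and 0.11, with 95% intervals from -0.65 to 0.30 and from -0.27 to 0.49. With 1 sample left out the Gls2 value ran from -0.29 to -0.012 (without control SHPC replicate 3), and that of Hal from 0.0031 (without control SHPC replicate 1) to 0.25 (without control SHPC replicate 3). The Hal value in SHPCs with BM-MCs against MHs, fitted with the set of arrays as a block, was 0.15 (adjusted p = 0.98 from limma) in place of 0.58.

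**Figure D3:**
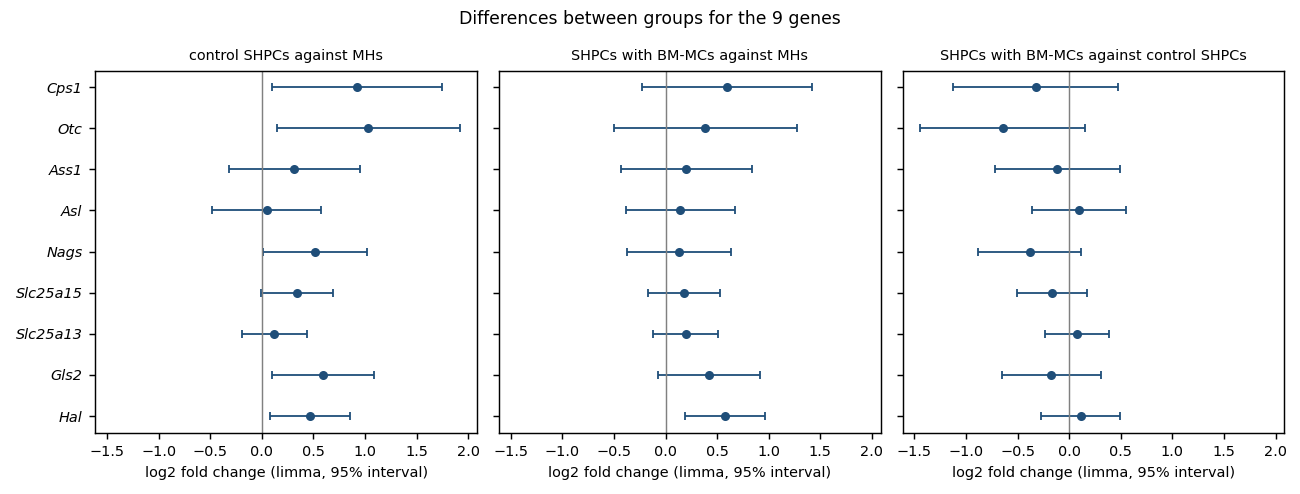
Log2 fold changes of the 9 genes with their 95% intervals from limma, for control SHPCs against MHs, SHPCs with BM-MCs against MHs and SHPCs with BM-MCs against control SHPCs. All points lie above 0 in both comparisons with MHs (in the first Asl falls below 0 without scaling, with array weights, with either block and without MH replicate 2 or control SHPC replicate 3, and Slc25a13 with normexp background correction and quantile normalization together on 7 arrays, and in the second 4 genes do with arrays set to their medians, 7 with the set of arrays as a block, Nags with the replicate block or without BM-MC replicate 3 and Asl without MH replicate 2), and every interval includes 0 in the comparison of the SHPC groups.

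Counted by sample, 6 of the 9 genes had every control SHPC sample above both MHs, where 18.7% of all tested probes did, and 0 had every sample below, where 22.7% did. With BM-MCs, 4 of the 9 genes had every SHPC sample above both MHs, against 16.1% of probes, and 0 had every sample below, against 16.3%. Between the SHPC groups all 9 genes overlapped, where 13.1% of probes lay wholly higher and 11.7% wholly lower with BM-MCs.

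Samples differed within groups as well as between them. After centring each gene on its mean, the median over the 9 genes was -0.20 and -0.30 in the MHs, 0.03, 0.05 and 0.58 in control SHPCs and -0.12, -0.02 and 0.25 in SHPCs with BM-MCs. Replicate 3 was thus the highest in both SHPC groups. Without control SHPC replicate 3 the median log2 fold change was 0.33 in control SHPCs against MHs, which is also the value within the first set of arrays. The median between the SHPC groups was -0.17 with that sample and -0.012 without it. The median for SHPCs with BM-MCs against MHs was 0.38 without MH replicate 1. Within the second set of arrays, where that sample is the only control, the median between the SHPC groups was -0.50. The MHs and BM-MC samples share no set, and a fit with the set as a block gave a median of -0.14 for SHPCs with BM-MCs against MHs. Most of the genes varied together over the 8 samples, as a description of samples that share a slide and a scaling. Pearson's r was 0.91 for Otc and Nags, 0.90 for Cps1 and Nags and 0.79 for Cps1 and Otc. The cytosolic Ass1 had 0.76 with Cps1, 0.73 with Otc and 0.79 with Nags. Asl had 0.16 with Cps1 and 0.22 with Otc, and Slc25a13 had 0.32 and 0.18, while Asl and Slc25a13 had 0.74 with each other.

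RefSeq (GRCr8) gave 9 promoter entries for 8 of the genes. In the 250 bases before the start, the HNF4-type motif AAAGTTC or AAAGTCC, read on both strands, was found in 2 of the 9, those of Cps1 and Otc, and in 7.33% of 33469 rat promoters. These are shown because Cps1 and Otc had the 2 largest log2 fold changes in control SHPCs against MHs, and the capitals mark the motif, 70 and 94 bases before the start. The Cps1 window is chr9:76063613-76063862 (plus strand) and the Otc window chrX:15202474-15202723 (minus strand).
Cps1 promoter: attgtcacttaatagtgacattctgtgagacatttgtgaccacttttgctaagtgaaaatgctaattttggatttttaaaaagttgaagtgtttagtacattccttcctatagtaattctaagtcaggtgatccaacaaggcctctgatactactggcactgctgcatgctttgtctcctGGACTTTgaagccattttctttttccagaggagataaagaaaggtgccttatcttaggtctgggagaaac
Otc promoter: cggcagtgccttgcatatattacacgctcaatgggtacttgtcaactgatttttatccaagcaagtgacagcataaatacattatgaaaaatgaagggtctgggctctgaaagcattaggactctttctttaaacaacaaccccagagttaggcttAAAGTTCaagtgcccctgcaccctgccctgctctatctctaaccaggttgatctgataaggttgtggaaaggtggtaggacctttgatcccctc
The cAMP response letters TGACG, likewise on both strands, were found in a promoter of Gls2 and in that of Slc25a13, and in 18.2% of all promoters. A match is a run of letters and not evidence of binding. The C/EBP-type letters TTNNGNAAT and the glucocorticoid letters TGTTCT were in none of the 9 windows, against 10.9% and 17.5% of promoters. Hal was not matched to an entry.

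Other genes of nitrogen metabolism and of liver zonation were described from lists. Among 14 tested genes that supply ammonia and glutamate, 0 were called in any comparison, and the median log2 fold change was 0.23 in control SHPCs and 0.22 in SHPCs with BM-MCs against MHs. Gpt, alanine aminotransferase, had log2 fold changes of 1.22 and 1.29 (adjusted p = 0.14 and 0.24 from limma), and Got2, the mitochondrial aspartate aminotransferase, had 0.88 in control SHPCs (adjusted p = 0.16 from limma). Slc38a2, an amino acid transporter, had 1.07 in SHPCs with BM-MCs (adjusted p = 0.27 from limma). Among 9 genes of histidine, serine and ornithine-proline catabolism, 0 were called. Against MHs 6 were positive and 3 negative in control SHPCs (median 0.32), and 7 and 2 in SHPCs with BM-MCs (median 0.29). Oat was the lowest of the list in both, at -1.26 and -0.89 (adjusted p = 0.23 and 0.45 from limma). Sds, serine dehydratase, had 1.78 in control SHPCs and 2.06 in SHPCs with BM-MCs against MHs (adjusted p = 0.081 and 0.093 from limma). Amdhd1, which acts after Hal in histidine breakdown, had 1.89 and 1.81 (adjusted p = 0.084 and 0.18 from limma). The Sds and Amdhd1 values were larger than those of any of the 9 genes by its brightest probe. Under the alternatives Sds passed the adjusted threshold in 2 of 23 settings in each comparison with MHs. Amdhd1 passed it in 2 of 23 in control SHPCs and in 1 of 23 in SHPCs with BM-MCs.

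A further list held 10 other periportal genes, with the aminotransferase Tat among them. In this list Aldh1b1, a mitochondrial aldehyde dehydrogenase, was the only gene of the 6 lists that was called as fitted here. It rose in control SHPCs against MHs by 1.87 on the log2 scale (standard error 0.22, adjusted p = 0.010 from limma), with levels of 1.36 and 0.86 in the MHs and 2.95, 2.89 and 3.11 in control SHPCs. The call was lost without MH replicate 2 (1.62, adjusted p = 0.065 from limma) and without control SHPC replicate 1 (1.89, adjusted p = 0.052 from limma). With BM-MCs it was at 2.18, 1.59 and 1.76, and the log2 fold change against control SHPCs was -1.14 (adjusted p = 0.10 from limma). Pigr, the polymeric immunoglobulin receptor, had 1.10 in the same comparison (adjusted p = 0.15 from limma), whereas in control SHPCs against MHs it had -1.03 (adjusted p = 0.12 from limma). Igf1, a growth factor secreted by hepatocytes, had -0.43 there (adjusted p = 0.24 from limma). These were the 2 negative values among the 10 genes in control SHPCs against MHs, where the list's median was 0.39. In SHPCs with BM-MCs against MHs 9 of the 10 were positive, with a median of 0.36. Between the SHPC groups Aldh1b1 and Pigr each passed the adjusted threshold in 2 of 21 alternative settings.

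Genes of the pericentral zone mostly had negative log2 fold changes against MHs. Of the 9 tested, 8 had negative log2 fold changes in control SHPCs and 8 in SHPCs with BM-MCs against MHs, with medians of -0.77 and -0.55, and 0 were called. Cyp1a2, a drug-metabolising cytochrome, was at 5.23 and 4.92 in the MHs and at 4.28, 4.26 and 4.37 in control SHPCs, which differed from MHs by -0.77 (adjusted p = 0.068 from limma). Rhbg, an ammonium channel, had -1.51 (adjusted p = 0.071 from limma), with -1.85 to -0.98 over the alternatives. In control SHPCs against MHs Cyp1a2 passed the adjusted threshold in 2 of 23 settings and Rhbg in 4 of 23. Glul, glutamine synthetase, was at 3.13 and 2.99 in the MHs and at 2.40, 2.20 and 1.68 in SHPCs with BM-MCs, which differed from MHs by -0.97 (adjusted p = 0.29 from limma). Of 8 polyamine genes, whose pathway starts from ornithine, 0 were called. Sat1, which acetylates polyamines, had -0.58 and Azin1, an antizyme inhibitor, 0.46 in control SHPCs against MHs (adjusted p = 0.15 and 0.23 from limma). Of 10 regulators of urea cycle genes, 0 were called, with medians of -0.02 and 0.08 against MHs. Hnf4a and Cebpa, which maintain hepatocyte gene expression, had -0.19 and -0.14 in control SHPCs (adjusted p = 0.51 and 0.61 from limma), and Hnf4a had 0.024 with the mean of its probes. With 1 sample left out the Cebpa value ran from -0.22 to -0.059. Gcgr, the glucagon receptor, had 0.43 and Foxo1, a fasting-responsive factor, -0.40 in SHPCs with BM-MCs against MHs (adjusted p = 0.38 and 0.25 from limma). The MHs and BM-MC samples share no set of arrays, and with the set as a block the values against MHs were -0.19 for Glul, 0.15 for Gcgr, 0.35 for Gpt, 1.33 for Sds and 0.98 for Amdhd1, and 0.65 for Pigr against control SHPCs.

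**Figure D4:**
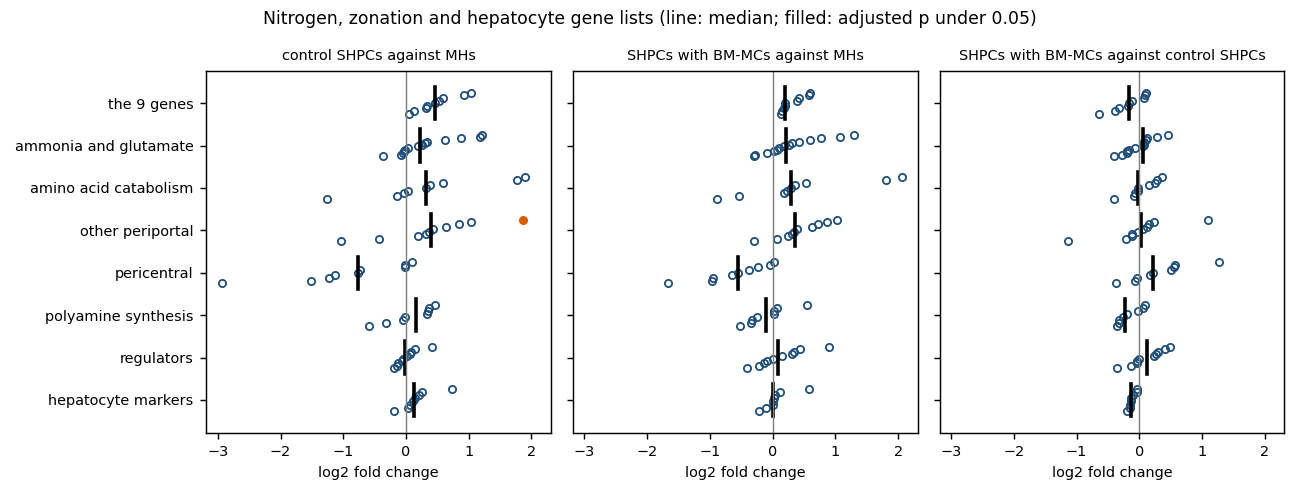
Log2 fold changes of the 9 genes and of the lists of ammonia and glutamate supply, amino acid catabolism, other periportal, pericentral, polyamine, regulator and hepatocyte marker genes in the 3 comparisons, with 1 point a gene and a line at the list's median. Aldh1b1 in control SHPCs against MHs is the only filled point, and the pericentral list has medians of -0.77 and -0.55 against MHs where the 9 genes have 0.47 and 0.20.

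Markers of cell types moved with some of these differences. Of 8 hepatocyte markers all 8 were tested, and their summed linear level relative to the 75th percentile was 908 to 933 in the MHs, 944 to 1095 in control SHPCs and 821 to 1040 in SHPCs with BM-MCs. Hepatocyte markers were thus abundant in all groups, as the labels give the cells. Summed levels of 8 Kupffer cell and macrophage markers were 88.3 to 95 in the MHs, 45.7 to 66.3 in control SHPCs and 57.1 to 82.1 in SHPCs with BM-MCs, and 7 of the 8 had negative log2 fold changes in both comparisons with MHs. All 8 proliferation genes were called higher in control SHPCs than in MHs, with a median log2 fold change of 3.05, and 5 of 8 in SHPCs with BM-MCs, where 0.917% and 0.32% of all tested probes were called higher. The calls in control SHPCs were lost with the methods' t-test after Benjamini-Hochberg adjustment, where 0 probes were called higher. The calls with BM-MCs were lost under either block, with no filter, with the compared groups alone in the fit, with the methods' t-test and without MH replicate 1, control SHPC replicate 1 or 2, or BM-MC replicate 2, where 0 probes were called higher. Compared with control SHPCs, all 8 proliferation genes were lower with BM-MCs at an unadjusted p under 0.05, with a median of -0.997, and 0 were called. Summed levels of the 5 erythroid markers were 13.2 to 26.8 in the MHs, 20.5 to 69.4 in control SHPCs and 10.2 to 13.9 in SHPCs with BM-MCs. Granulocyte markers, of which 3 of 6 were tested, summed to 0.409 to 1.53 in the MHs, 1.16 to 1.62 in control SHPCs and 0.383 to 0.504 in SHPCs with BM-MCs. In both lists every control SHPC sample was above every BM-MC sample. Sinusoidal endothelial markers, 6 tested of 8, summed to 14.4 to 17.3 in the MHs, 12.8 to 14.6 in control SHPCs and 14.8 to 16.4 in SHPCs with BM-MCs. Stellate cell and fibroblast markers, 7 tested of 8, summed to 5.88 to 6.11, 4.47 to 4.89 and 4.19 to 6.62 in the same order. Biliary markers, 7 tested of 8, summed to 0.740 to 0.780 in the MHs, 1.04 to 1.16 in control SHPCs and 0.865 to 1.07 in SHPCs with BM-MCs. Each sum took every marker of its list that is on the array, tested or not. The part of these markers in the differences of the urea cycle genes was not tested.

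Over the 8 samples, the gene profiles most like the mean standardised profile of the 9 genes were those of LOC102546892 (Pearson's r = 0.981), Gatd3a (0.978), Cbx8 (0.976), Lnp1 (0.975) and Acy1 (0.971), among 14373 genes outside the lists. These were picked for the highest values and are given as a description. Acy1, an aminoacylase that frees amino acids from their N-acetylated forms, was at -1.65 and -1.81 in the MHs, at -1.41, -1.27 and -0.74 in control SHPCs and at -1.39, -1.53 and -0.98 in SHPCs with BM-MCs.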

How the data were processed

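Gene expression of LMD-captured cells was read on Agilent rat arrays with 1 colour (8 samples: 2 MHs, 3 control SHPCs, 3 SHPCs with BM-MCs). Per the submitters' processing notes, the authors extracted signals with Agilent Feature Extraction 10.7. The deposited files hold intensity values, already background-subtracted by the scanner software and not scaled between arrays. Here each intensity was put on the log2 scale less the array's 75th percentile, outlier spots were left out, and spots of a probe were averaged. A probe was kept where at least 3 of the 7 fully marked arrays had it well above background, and the 23111 kept probes entered limma 3.58.1 (R 4.3.3; lmFit, eBayes, Benjamini-Hochberg, threshold 0.05). Both comparisons with MHs came from 1 fit of all 8 samples, and the comparison of SHPC groups from a fit of the 6 SHPC samples. A gene was represented by its brightest tested probe. The fit was tested on simulated data, and the outcome is not given here. One gene of the group is not reported here. The members and lists were chosen with earlier results of these data known. Named from the other lists were genes past the threshold (at most 6 a list and comparison) or else the 2 with the lowest p, and the 5 genes most like the members. Of the genes this named, Glud1, Slc38a4, Agmat, Aldh18a1, Oaz1, Sms, Pck1 and Cyp2e1 are described only within their lists. Alternatives covered scaling, background, filters, outliers, the fit, the methods' t-test, blocks and left-out replicates. The number of arrays limits the precision.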

Additional observations from a re-analysis of the deposited data

How the results depend on the processing

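The counts of called genes among the 9 stayed at 0 in every comparison under every alternative run. The median log2 fold change for SHPCs with BM-MCs against MHs moved to 0.0022 with arrays set to their medians, to -0.14 with the set of arrays as a block and to 0.38 with the mean of each gene's probes. The median between the SHPC groups moved to -0.50 with that block. With each replicate left out, the medians ran from 0.33 to 0.57, from 0.14 to 0.38 (the last without MH replicate 1) and from -0.26 (without control SHPC replicate 1) to -0.012 (without control SHPC replicate 3). In control SHPCs against MHs, Asl turned negative without scaling (-0.041), with array weights (-0.069), with the replicate block (-0.033) and with the set as a block (-0.11), Slc25a13 with normexp background correction and quantile normalization together on 7 arrays (-0.0065), and Hnf4a turned positive with the mean of its probes (0.024). Against MHs in SHPCs with BM-MCs, arrays set to their medians turned Asl (-0.055), Nags (-0.064), Slc25a15 (-0.021) and Slc25a13 (-0.0022). The set as a block turned Cps1 (-0.34), Otc (-0.12), Ass1 (-0.61), Asl (-0.34), Nags (-0.36), Slc25a15 (-0.14) and Gls2 (-0.066), and the replicate block turned Nags (-0.025). Between the SHPC groups, arrays set to their medians turned Asl (-0.096), Slc25a13 (-0.12) and Hal (-0.081), and the set as a block turned them to -0.22, -0.040 and -0.17. Array weights turned Ass1 (0.039), and the mean of its probes turned Slc25a15 (0.49). Left-out replicates gave Asl -0.19 to 0.29, -0.097 to 0.38 and -0.024 to 0.26 in the 3 comparisons, Nags -0.019 to 0.26 in SHPCs with BM-MCs against MHs, and Ass1 -0.26 to 0.16 and Slc25a13 -0.00011 to 0.14 between the SHPC groups. The cause was not tested. Over all probes, counts called higher and lower in the 3 comparisons (212 and 50, 74 and 4, 5 and 0) were 130 and 29, 0 and 0, and 0 and 0 with the replicate block. They were 199 and 49, 94 and 5, and 206 and 7 without scaling, 355 and 204, 114 and 16, and 29 and 4 with an intensity trend, 326 and 164, 58 and 2, and 269 and 57 with array weights, and 0 throughout with the methods' t-test after Benjamini-Hochberg adjustment. They were 114 and 10, 3 and 0, and 3 and 0 with that combined normexp and quantile setting, 124 and 12, 0 and 1, and 0 and 0 with no filter, 250 and 84, 74 and 6, and 3 and 0 with a floor for dim spots, 199 and 79, 70 and 6, and 3 and 0 with every complete array well above background, and 191 and 98, 0 and 3, and 1 and 4 with the set as a block. Setting arrays to their medians and quantile normalization gave 46 and 7 higher in SHPCs with BM-MCs against MHs, and the other choice of samples in the fit gave 213 and 76, 0 and 0, and 22 and 0. With each replicate left out the counts ran from 49 to 309 and 4 to 214, from 0 to 107 and 0 to 8, and from 0 to 490 and 0 to 40. Same-numbered samples had correlated deviations of 0.13, 0.08 and 0.17 between the SHPC groups and -0.13 to 0.05 with the MHs, so the numbers do not show pairing, and control SHPC replicate 2 correlated best with BM-MC replicate 1. The Aldh1b1 call was lost with the methods' t-test (adjusted p = 0.16).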
